A study of Sus scrofa with 18 samples.

Results

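The genes described here are 10 classical antiviral interferon-stimulated genes (ISGs) of the pig: MX1, MX2, IFIT1, IFIT3, OAS1, OAS2, ISG15, USP18, RSAD2 and BST2. They were listed by name as classical ISGs, by a rule that uses no measured value, though with earlier results of these data known, and were placed at their RefSeq positions on the Sscrofa11.1 assembly. All 10 of the 10 listed genes could be placed, among 28210 RefSeq genes on chromosomes 1 to 18, X and Y, of which 19550 are protein-coding. A peak was counted for a gene when it overlapped, by at least 1 bp, the window from 3 kb before to 3 kb after that gene.

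The peaks come from CUT&Tag, in which a protein A-Tn5 fusion cuts and tags the DNA next to antibody-bound nucleosomes. The antibodies were against H3K4me3, a histone mark typical of promoters in use, and H3K27ac, a mark found at promoters and enhancers in use. Pig myometrium, the muscle wall of the uterus, was profiled on day 15 in 3 types of sample: circular muscle of pregnant gilts (GD15M_CM), longitudinal muscle of pregnant gilts (GD15M_LM) and circular muscle of cyclic gilts (CD15M_CM), with n = 2 gilts for each type. All gilts were Yorkshire, the pregnant ones after natural mating and the cyclic ones unmated, and the labels name no genetic change and no drug in any group. Every sample came from the mesometrial side of the uterus, where the vessels enter, after the endometrium had been cut away, and the age of the gilts is not given in the sources used here.

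Interferons released by cells or, in the pig, by the elongating conceptus bind surface receptors, and Janus kinases then phosphorylate STAT proteins, which enter the nucleus and switch on the ISGs. Some of the proteins made hold viral RNA or virions directly, and others, such as USP18, shut the receptor signal down again. Pig conceptuses secrete interferon gamma and interferon delta around attachment, and ISGs such as MX1 and ISG15 are well known as genes that respond to pregnancy in the uterus of pigs and ruminants.

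Both replicates were pooled before peaks were called, so each mark and tissue has a single list and each gene a single value in it. No difference given here can therefore be set against the spread between gilts, and these lists allow no test between groups. The study also compared the replicates of these tissues with DiffBind, and those results are not used here. The lists carry no read depth, and the depth of the libraries was not used here. For GD15M_CM, GD15M_LM and CD15M_CM in this order, the H3K4me3 lists hold 33599, 31910 and 36331 peaks and the H3K27ac lists 79877, 57010 and 82037. Fold enrichment over IgG differs in scale between lists: its 90th percentile lies at 20.3, 25.6 and 24.8 for H3K4me3 and at 5.39, 6.29 and 5.39 for H3K27ac. The level of a gene is therefore given as the percentile of its highest peak, which is the share of peaks in that list with a fold enrichment no higher than that of the peak. A gene without a peak in its window has the level 0.

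The tissue label was checked against marker genes. All 6 smooth muscle markers (MYH11, ACTA2, CNN1, TAGLN, DES and MYOCD) had peaks of both marks in every tissue, with a median H3K27ac percentile of 79.4 in GD15M_CM, 91.1 in GD15M_LM and 94.2 in CD15M_CM, and a median H3K4me3 percentile of 77.0, 89.0 and 87.3. Markers of other cells were not absent, and their levels moved with the groups. The 5 uterine epithelium markers (EPCAM, KRT8, KRT18, CDH1 and ESRP1) had a median H3K27ac percentile of 76.1 in GD15M_CM, 20.1 in GD15M_LM, where KRT18 was at 0, and 72.3 in CD15M_CM, with single markers ranging from 66.0 to 84.1, from 0 to 42.3 and from 4.83 to 84.9. Their median H3K4me3 percentile was 79.4, 59.1 and 84.5. For the 5 macrophage markers (CSF1R, CD163, CD68, AIF1 and CD14) the median H3K27ac percentile was 73.8, 39.1 and 73.1 and single markers reached 96.7, 94.5 and 94.1, with CD163 at 0 in each list. Of the 5 T cell markers (CD3E, CD3D, CD2, CD8A and LCK), CD3E and CD3D had no H3K27ac peak in any tissue and CD2 only in GD15M_CM, while all 5 had an H3K4me3 peak, at a median of 66.8 in GD15M_CM, 57.8 in GD15M_LM and 52.6 in CD15M_CM. For the 5 endothelium markers (PECAM1, CDH5, VWF, TEK and KDR) the lists gave median H3K27ac percentiles of 43.2, 54.2 and 68.4, with KDR at 0 in each list. The part of such cells in the results below was not tested. In bulk muscle, fewer cells that carry a mark and less of the mark in each cell cannot be told apart.

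Every one of the 10 ISGs had an H3K4me3 peak in all 3 tissues, and every one but OAS1 in GD15M_LM had an H3K27ac peak. Over all protein-coding genes the share with a peak was 73.7%, 74.6% and 75.4% for H3K4me3 and 73.9%, 73.1% and 75.8% for H3K27ac in GD15M_CM, GD15M_LM and CD15M_CM. The median level of the 10 ISGs was 84.8, 70.3 and 74.8 for H3K4me3, beside 81.5, 80.2 and 82.5 over all protein-coding genes with a peak. For H3K27ac it was 84.0, 75.7 and 79.2, beside 88.0, 84.4 and 86.2. The H3K4me3 median of the ISGs thus stood above the general one in GD15M_CM and below it in the other two tissues. Their H3K27ac median stood below it in each tissue, in GD15M_LM with OAS1 counted at 0. In both circular muscles the H3K4me3 level of OAS1 is that of a peak at the end of OAS2. That peak thus enters the H3K4me3 medians at both genes, and the margin in GD15M_CM rests largely on this. The highest H3K4me3 peak inside OAS1 stood at 67.6 in GD15M_CM and 70.2 in CD15M_CM. With 67.6 at OAS1, the middle values in GD15M_CM would be 80.5 (IFIT3) and 83.4 (USP18), on both sides of the general 81.5. The medians with these values were not computed.

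**Figure D1:**
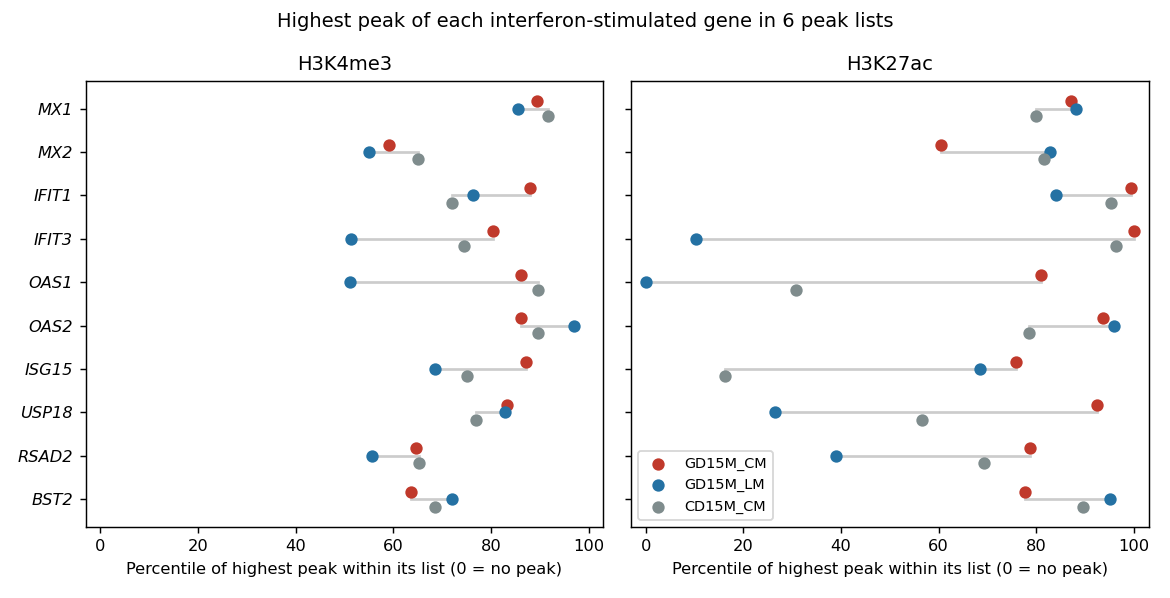
Percentile of the highest H3K4me3 (left) and H3K27ac (right) peak of each ISG in GD15M_CM (red), GD15M_LM (blue) and CD15M_CM (grey), where 0 means no peak and the grey line spans the 3 tissues. All H3K4me3 points lie between 51.1 and 96.9, while the H3K27ac points run from 0 (OAS1 in GD15M_LM) to 99.9 (IFIT3 in GD15M_CM). Each point is 1 pooled list, so no error can be drawn.

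MX1 and MX2 encode dynamin-like GTPases that trap incoming viral nucleoproteins and capsids. They lie next to each other on chromosome 13, MX2 at 204798633 to 204821612 and MX1 at 204843049 to 204868927, with 21436 bp between them. At both genes the H3K4me3 peak covered the lower-coordinate end and none lay at the upper end. The highest H3K4me3 peak of MX1 had a percentile of 89.5 in GD15M_CM, 85.5 in GD15M_LM and 91.6 in CD15M_CM, with fold enrichments of 20.0, 22.8 and 26.1. That of MX2 had a percentile of 59.2, 55.0 and 65.0, with fold enrichments of 6.51, 6.92 and 9.25. MX1 was therefore the more strongly marked of the pair in each tissue, with a peak of 3841, 2701 and 4033 bp against 1730, 1737 and 2745 bp, and neither gene differed by 10 percentile points between GD15M_CM and either of the other tissues.

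For H3K27ac the pair parted. MX1 stood at 87.1 in GD15M_CM, 88.1 in GD15M_LM and 79.9 in CD15M_CM. MX2 stood at 60.4 in GD15M_CM, 82.9 in GD15M_LM and 81.6 in CD15M_CM. MX2 was thus lowest in pregnant circular muscle, with a difference of −21.2 points from cyclic circular muscle and of −22.5 points from longitudinal muscle, while MX1 was within 10 points in both comparisons. The lower MX2 level is a matter of which measure is read: ranked by −log10 p instead of fold enrichment, the difference from cyclic muscle was 2.37 points in the other direction and that from longitudinal muscle was −2.34 points. In GD15M_CM and GD15M_LM the highest MX2 peak lay 1007 and 875 bp below the gene and overlapped FAM3B, which ends 1840 bp from MX2. In CD15M_CM a peak of 1487 bp over the lower end of MX2 itself was the highest. Without peaks that touch a neighbouring gene and not MX2 itself, the differences were −24.2 points from cyclic and −17.6 points from longitudinal muscle.

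IFIT1 and IFIT3 encode tetratricopeptide repeat proteins, of which IFIT1 binds viral RNA caps and IFIT3 stabilises IFIT1. IFIT3 lies at 101214730 to 101225169 and IFIT1 at 101237403 to 101249486 on chromosome 14, 12233 bp apart, and both lie inside the RefSeq span of LIPA (101131372 to 101254739), which encodes lysosomal acid lipase. Signal in their windows therefore also falls within LIPA. The highest H3K27ac peak of IFIT3 had a fold enrichment of 10.8 in GD15M_CM, 2.73 in GD15M_LM and 6.53 in CD15M_CM. These values put it at rank 58 of 79877 peaks, rank 51153 of 57010 and rank 2978 of 82037, which are percentiles of 99.9, 10.3 and 96.4. IFIT3 thus carried one of the highest H3K27ac peaks of the genome in pregnant circular muscle and a low one in longitudinal muscle, a difference of 89.7 points that exceeded the difference of 99.8% of protein-coding genes with a peak.

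The IFIT3 H3K27ac peak had nearly the same outline in the 3 tissues. It ran from 848 to 4114 bp inside the lower end of the gene in GD15M_CM, from 1179 to 3958 bp in GD15M_LM and from 1102 to 3971 bp in CD15M_CM. H3K4me3 covered the lower end and the same stretch, as a peak of 4255 bp in GD15M_CM and 4232 bp in GD15M_LM and as 2 peaks of 798 and 3085 bp in CD15M_CM. The tissues thus differed in the height of the marks over this stretch more than in where they lay. The highest H3K4me3 peak had a fold enrichment of 15.7 in GD15M_CM, 5.94 in GD15M_LM and 15.3 in CD15M_CM and a percentile of 80.5, 51.3 and 74.5, so that circular muscle exceeded longitudinal muscle by 29.2 points and the pregnant and cyclic values were 6.03 points apart. In GD15M_LM both IFIT3 peaks had a −log10 p that was high for their fold, at or above 98.8% of the H3K4me3 and 98.1% of the H3K27ac peaks of like fold in that list. Ranked by −log10 p, circular muscle exceeded longitudinal muscle by 10.5 points for H3K4me3 and by 52.1 points for H3K27ac.

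**Figure D2:**
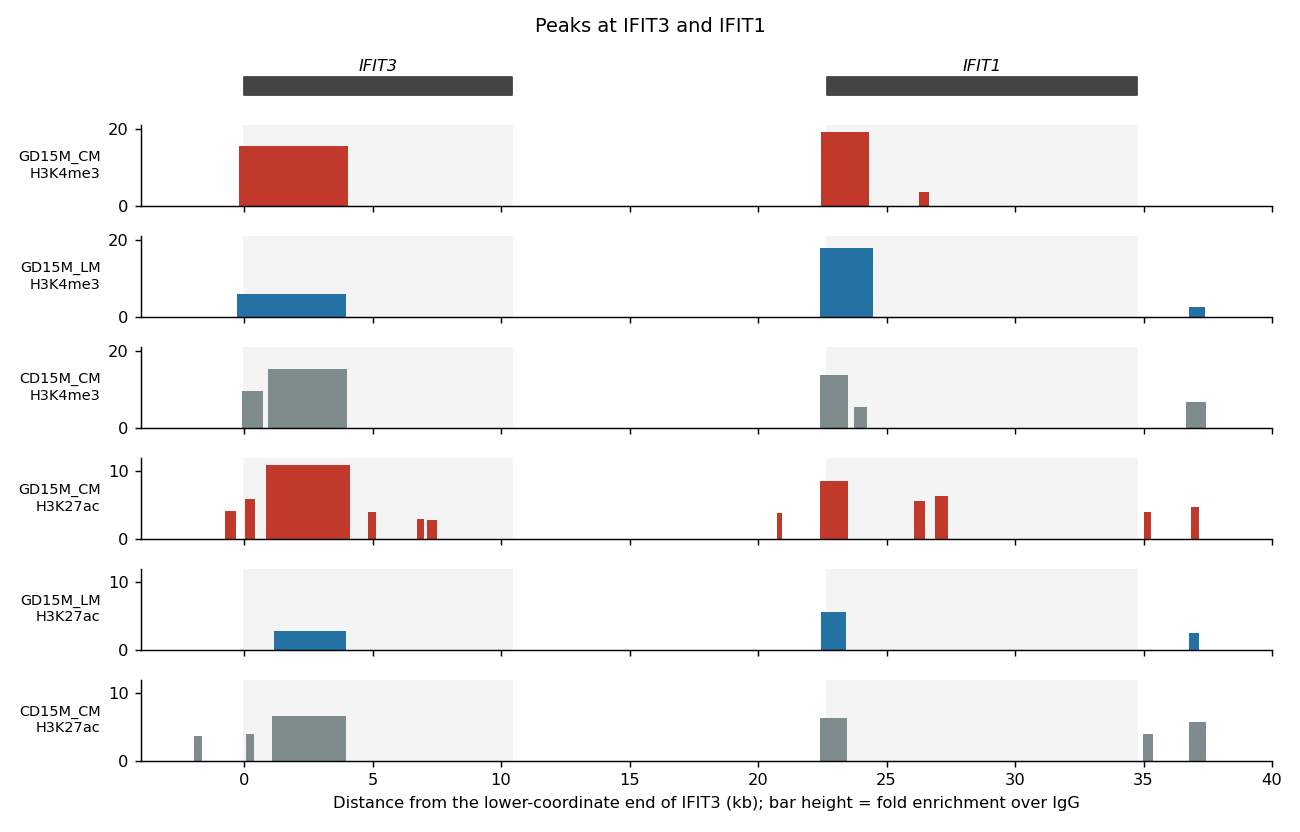
Peaks of both marks around IFIT3 and IFIT1 (dark bars), drawn as blocks from start to end along the distance in kb from the lower-coordinate end of IFIT3, with fold enrichment over IgG as height on the same scale within a mark. The IFIT3 block is highest for H3K27ac in GD15M_CM (10.8) and low in GD15M_LM (2.73), and blocks of H3K27ac lying wholly inside IFIT1 appear in GD15M_CM only.

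IFIT1 had a narrow H3K27ac peak over its lower end, with lengths of 1089, 974 and 1044 bp in GD15M_CM, GD15M_LM and CD15M_CM. Its fold enrichment was 8.57, 5.58 and 6.27, which placed it at rank 550, 9083 and 3782 and at percentiles of 99.3, 84.1 and 95.4. As at IFIT3, pregnant circular muscle was highest and longitudinal muscle lowest. GD15M_CM also had 2 H3K27ac peaks inside the gene, of 444 and 519 bp, at percentiles of 91.0 and 95.1, and neither of the other two tissues had one there. Past the upper end, 2005 to 2099 bp away, lay an H3K27ac peak found in each tissue, at percentiles of 83.5, 4.96 and 92.6.

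The H3K4me3 peak at the lower end of IFIT1 had a fold enrichment of 19.2 in GD15M_CM, 17.9 in GD15M_LM and 13.9 in CD15M_CM, and percentiles of 88.1, 76.4 and 72.1. Pregnant circular muscle exceeded cyclic circular muscle by 16.0 points and longitudinal muscle by 11.6 points. Of the 10 ISGs, IFIT1 had the largest H3K4me3 difference between pregnancy and cycle. Both differences fell under 10 points when ranked by −log10 p, to 4.41 and 2.17 points, and that between the layers was 6.99 points with fold summed over bases. The GD15M_CM peak had a −log10 p of 60.2 where the median of 2448 peaks of like fold was 99.5. A further H3K4me3 peak beyond the upper end was found at a percentile of 60.4 in CD15M_CM and 2.27 in GD15M_LM and not in GD15M_CM.

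OAS1 and OAS2 encode oligoadenylate synthetases, which sense double-stranded RNA and make the second messenger that activates RNase L. They are neighbours on chromosome 14, OAS2 at 38827667 to 38847697 and OAS1 at 38851083 to 38867427, with 3385 bp between them, and the far end of OAS1 overlaps RPH3A. OAS2 carried its marks at the upper-coordinate end, towards OAS1. Its highest H3K4me3 peak (3744, 3690 and 4896 bp long in GD15M_CM, GD15M_LM and CD15M_CM) had a fold enrichment of 18.3, 32.8 and 24.6 and a percentile of 86.2, 96.9 and 89.8. OAS2 was thus the ISG with the highest H3K4me3 level in longitudinal muscle, and pregnant circular muscle differed from it by −10.7 points, or by −7.96 with fold summed over bases. Its H3K27ac level was 93.6 in GD15M_CM, 96.0 in GD15M_LM and 78.5 in CD15M_CM, and pregnant circular muscle exceeded cyclic circular muscle by 15.1 points, or by 9.20 with fold summed over bases.

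OAS1 had its marks in the middle of the gene. In GD15M_CM an H3K4me3 peak of 4411 bp began 4259 bp inside the lower end and a second of 684 bp followed, at percentiles of 67.6 and 66.3. In CD15M_CM the corresponding peaks of 4173 and 697 bp had percentiles of 65.8 and 70.2. In GD15M_LM the longer stretch was called as 2 peaks of 1397 and 1337 bp, at 26.9 and 48.8, and the shorter as a peak of 585 bp at 51.1. Longitudinal muscle was lowest at these sites and both circular muscles were close to each other. The upper-end peak of OAS2 reaches into the OAS1 window in GD15M_CM and CD15M_CM, ending 2987 and 2934 bp before OAS1, so that the window gives OAS1 percentiles of 86.2, 51.1 and 89.8 and a circular minus longitudinal difference of 35.1 points. Without peaks that touch a neighbouring gene and not OAS1 itself, that difference was 16.5 points.

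For H3K27ac OAS1 was the only ISG without a peak in a tissue. Its highest percentile was 80.9 in GD15M_CM, 0 in GD15M_LM and 30.9 in CD15M_CM, with a fold enrichment of 4.58 and 3.07 in the circular muscles. GD15M_CM had 8 H3K27ac peaks in the window and CD15M_CM had 4. Several OAS1 peaks had a −log10 p high for their fold: 71.5 for the 4411 bp H3K4me3 peak of GD15M_CM, where the median of 1357 peaks of like fold was 45.3, and at or above 99.7% of like peaks for the 1397 bp peak of GD15M_LM. Ranked by −log10 p, pregnant circular muscle exceeded cyclic circular muscle by 21.0 points in place of 50.1.

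**Figure D3:**
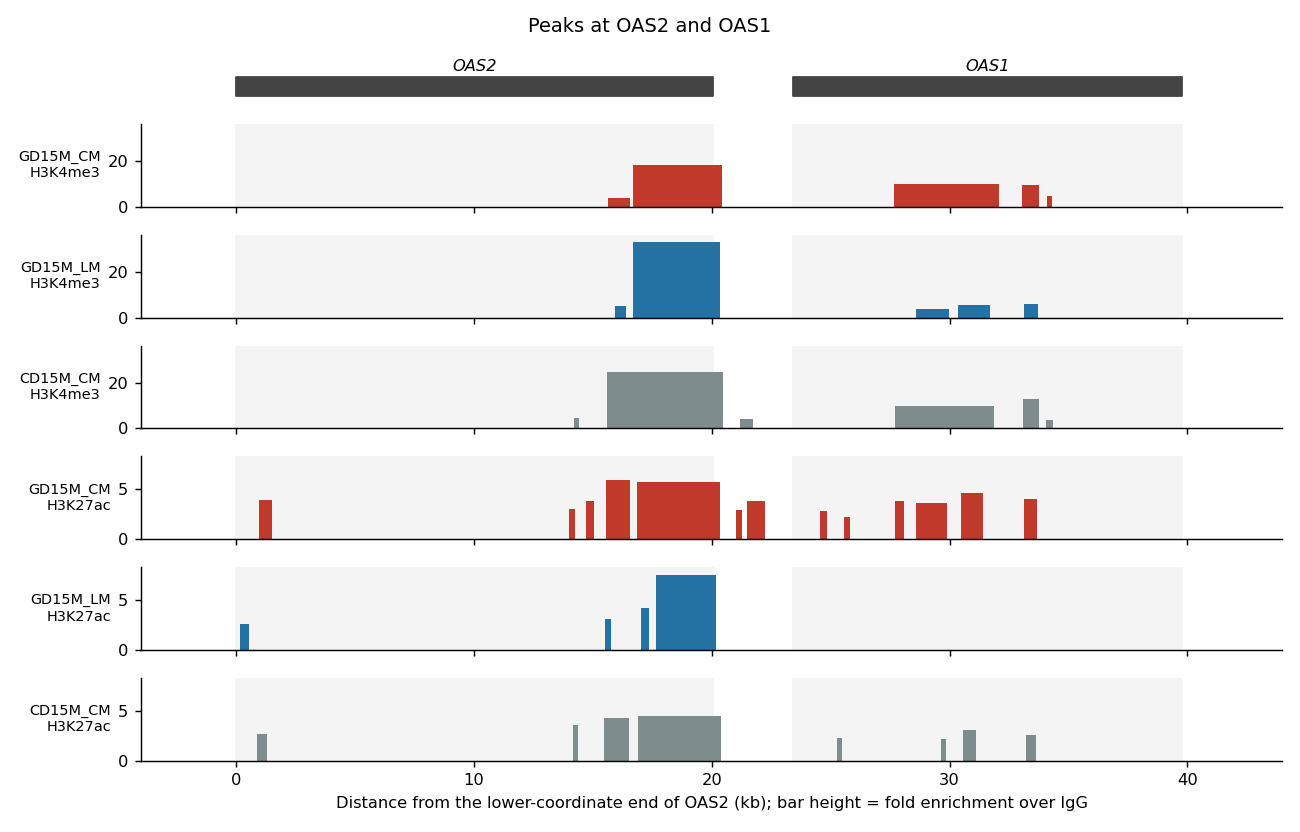
Peaks of both marks around OAS2 and OAS1 (dark bars), drawn along the distance in kb from the lower-coordinate end of OAS2 with fold enrichment over IgG as height on the same scale within a mark. The tallest H3K4me3 block of each tissue lies at the end of OAS2 that faces OAS1. Its fold enrichment is 18.3 in GD15M_CM, 32.8 in GD15M_LM and 24.6 in CD15M_CM. GD15M_LM shows no H3K27ac block in OAS1.

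ISG15 encodes a ubiquitin-like modifier that is attached to other proteins after interferon, and USP18 encodes the protease that removes it and that also blocks signalling at the interferon receptor. ISG15 is a short gene of 1011 bp on chromosome 6 (63363201 to 63364211). It overlaps LOC110261384, and AGRN, which encodes agrin of the basement membrane, begins 1805 bp away. A single peak of each mark covered the whole gene and ran on towards AGRN. In GD15M_CM, GD15M_LM and CD15M_CM it was 6186, 7077 and 10083 bp long for H3K4me3 and 4259, 3053 and 5485 bp long for H3K27ac. The values of ISG15 are therefore those of a stretch shared with LOC110261384 and, apart from the H3K27ac peak of GD15M_LM, which ends before it, with AGRN.

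The H3K4me3 percentile of ISG15 was 87.2 in GD15M_CM, 68.6 in GD15M_LM and 75.2 in CD15M_CM. Pregnant circular muscle was highest, by 12.0 points over cyclic circular muscle (9.09 when ranked by −log10 p) and 18.6 points over longitudinal muscle. For H3K27ac the percentile was 75.9 in GD15M_CM, 68.4 in GD15M_LM and 16.3 in CD15M_CM, with fold enrichments of 4.31, 4.50 and 2.73. The difference of 59.6 points between pregnant and cyclic circular muscle exceeded that of 98.0% of protein-coding genes with a peak. The cyclic peak was low but long, at least as long as 99.3% of its list, and had a −log10 p at or above 98.0% of peaks of like fold. The difference was 30.0 points when ranked by −log10 p, 22.1 with percentiles among genes and 15.8 with fold summed over bases, and no ISG15 H3K27ac peak in either tissue had a fold of at least 5.

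USP18 lies on chromosome 5 at 70183321 to 70227990, and H3K4me3 covered its lower-coordinate end. The peak, 3091, 2786 and 3584 bp long in GD15M_CM, GD15M_LM and CD15M_CM, had percentiles of 83.4, 82.8 and 76.9. GD15M_CM exceeded CD15M_CM by 6.48 points and GD15M_LM by 0.56 points. H3K27ac at the same end did not follow them: its percentile was 92.5 in GD15M_CM, 26.4 in GD15M_LM and 56.5 in CD15M_CM. Its signal formed 1 peak of 2242 bp in GD15M_CM, 1 of 707 bp in GD15M_LM and 3 pieces of 277, 912 and 237 bp in CD15M_CM. Circular muscle exceeded longitudinal muscle by 66.1 points and pregnant exceeded cyclic circular muscle by 35.9 points, and ranked by −log10 p by 35.7 and 17.9 points.

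**Figure D4:**
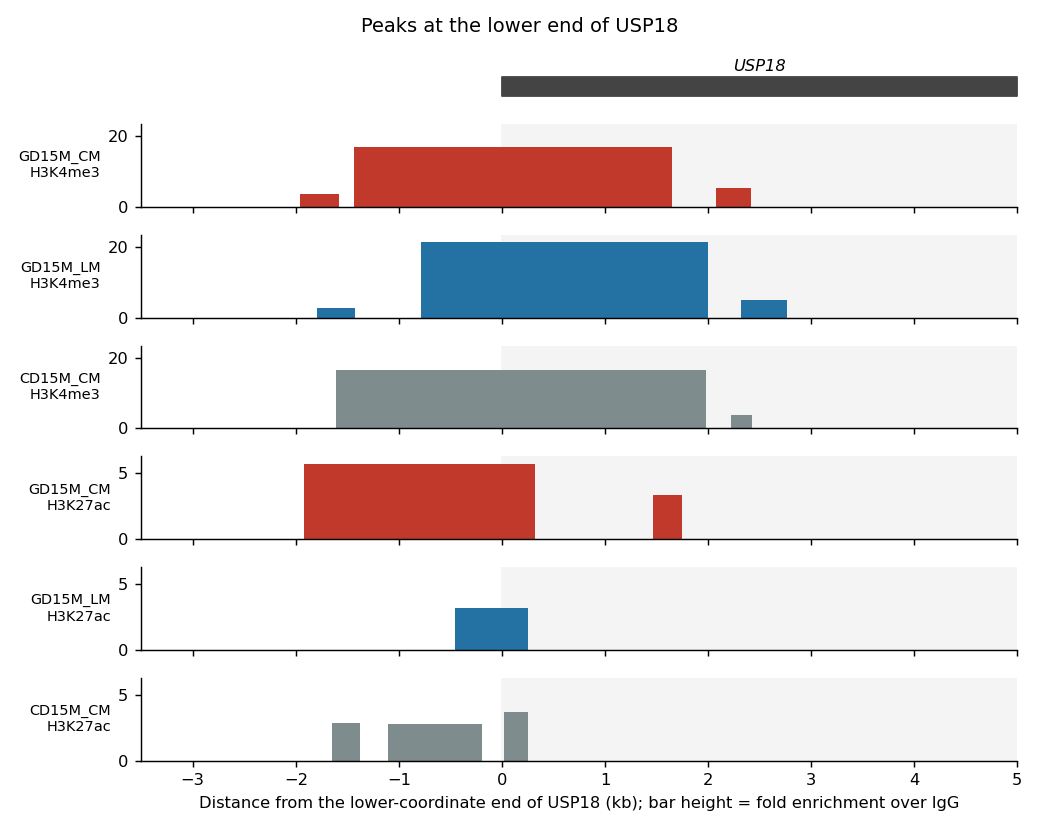
Peaks of both marks at the lower-coordinate end of USP18 (dark bar), drawn along the distance in kb from that end with fold enrichment over IgG as height on the same scale within a mark. The H3K4me3 blocks are alike in the 3 tissues, while the H3K27ac block is 2242 bp long in GD15M_CM, 707 bp in GD15M_LM and broken into 3 in CD15M_CM.

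RSAD2 encodes viperin, a radical SAM enzyme that makes a chain-terminating nucleotide. It lies on chromosome 3 at 128880853 to 128897809 and was marked at its upper-coordinate end. The H3K4me3 percentile was 64.7 in GD15M_CM, 55.6 in GD15M_LM and 65.2 in CD15M_CM, with fold enrichments of 8.59, 7.18 and 9.40, so that the 3 tissues lay within 10 points. The H3K27ac percentile was 78.6 in GD15M_CM, 39.1 in GD15M_LM and 69.3 in CD15M_CM, and circular muscle exceeded longitudinal muscle by 39.6 points. The cyclic value comes from a peak of 261 bp that ends 1320 bp below the other end of the gene. The GD15M_LM value comes from a peak of 291 bp inside the gene, 992 bp from its upper end. The GD15M_LM peak over that end had a percentile of 5.31, so the layers are not compared at the same site. At the upper end itself the cyclic H3K27ac peak had a percentile of 39.6, and with 1 kb in place of 3 kb around the gene pregnant muscle exceeded cyclic muscle by 39.0 points rather than 9.37.

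BST2 encodes tetherin, a membrane protein that holds budding virions at the cell surface. It is a gene of 2990 bp on chromosome 2 (60305306 to 60308295), and both marks covered its lower-coordinate end. The H3K4me3 percentile was 63.7 in GD15M_CM, 72.1 in GD15M_LM and 68.6 in CD15M_CM, with fold enrichments of 8.16, 15.7 and 11.7. For H3K27ac the percentile was 77.7, 95.0 and 89.7, with fold enrichments of 4.39, 7.24 and 5.37. BST2 was lowest in pregnant circular muscle for both marks, and for H3K27ac the difference was −17.4 points against longitudinal and −12.0 points against cyclic circular muscle. Ranked by −log10 p these were −4.96 and −3.53 points. BST2 shared its order of tissues for H3K27ac with MX2, and the other 8 ISGs did not have it.

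The first comparison asks whether these genes differ in their marks between pregnancy and the estrous cycle in circular muscle. For H3K4me3, 2 of the 10 ISGs were higher by at least 10 points in GD15M_CM than in CD15M_CM, ISG15 and IFIT1, and 0 were lower, where 11.9% of all protein-coding genes with a peak were higher and 23.1% lower. The median difference of the 10 was −1.34 points and that of all genes −2.05 points. For H3K27ac, 4 were higher, namely ISG15, OAS1, USP18 and OAS2, and 2 were lower, MX2 and BST2. Among all genes 24.5% were higher and 25.4% lower, and the median differences were 8.29 and −0.05 points. The ISGs thus stood close to the genome for H3K4me3. For H3K27ac, 8 of the 10 had a difference above 0, against 49.7% of all genes, but IFIT1 and IFIT3, which had the highest H3K27ac levels, moved by only 3.92 and 3.56 points, being close to the top of the list in both tissues. In fold enrichment the IFIT3 peak was 1.66 times and the IFIT1 peak 1.37 times as high in pregnant as in cyclic circular muscle. Between the same tissues the smooth muscle and endothelium markers had lower median H3K27ac percentiles in pregnant muscle (79.4 against 94.2 and 43.2 against 68.4), and the T cell markers a higher median H3K4me3 percentile (66.8 against 52.6).

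The second comparison asks how the layers of the pregnant uterus differ. For H3K4me3, 4 of the 10 ISGs were higher by at least 10 points in GD15M_CM than in GD15M_LM (OAS1, IFIT3, ISG15 and IFIT1) and OAS2 alone was lower, where 20.3% of all genes were higher and 19.3% lower. For H3K27ac, 5 were higher (IFIT3, OAS1, USP18, RSAD2 and IFIT1) and 2 were lower (MX2 and BST2), where 32.0% of all genes were higher and 21.6% lower. The median differences were 6.67 points for H3K4me3 and 11.3 points for H3K27ac, beside 0.41 and 1.96 points over all genes. Of the 5 ISGs with higher H3K27ac in circular muscle, IFIT3, OAS1 and USP18 had differences that exceeded those of 99.8%, 99.2% and 97.4% of all genes, and IFIT1 one that exceeded 75.5%. Between the same tissues the median H3K27ac percentile was higher in GD15M_CM for the epithelium (76.1 against 20.1) and macrophage markers (73.8 against 39.1). It was lower for the smooth muscle (79.4 against 91.1) and endothelium markers (43.2 against 54.2). The T cell markers had a higher median H3K4me3 percentile (66.8 against 57.8). Single markers did not all follow these medians: the highest smooth muscle H3K27ac value was 97.4 in GD15M_CM and 96.9 in GD15M_LM.

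**Figure D5:**
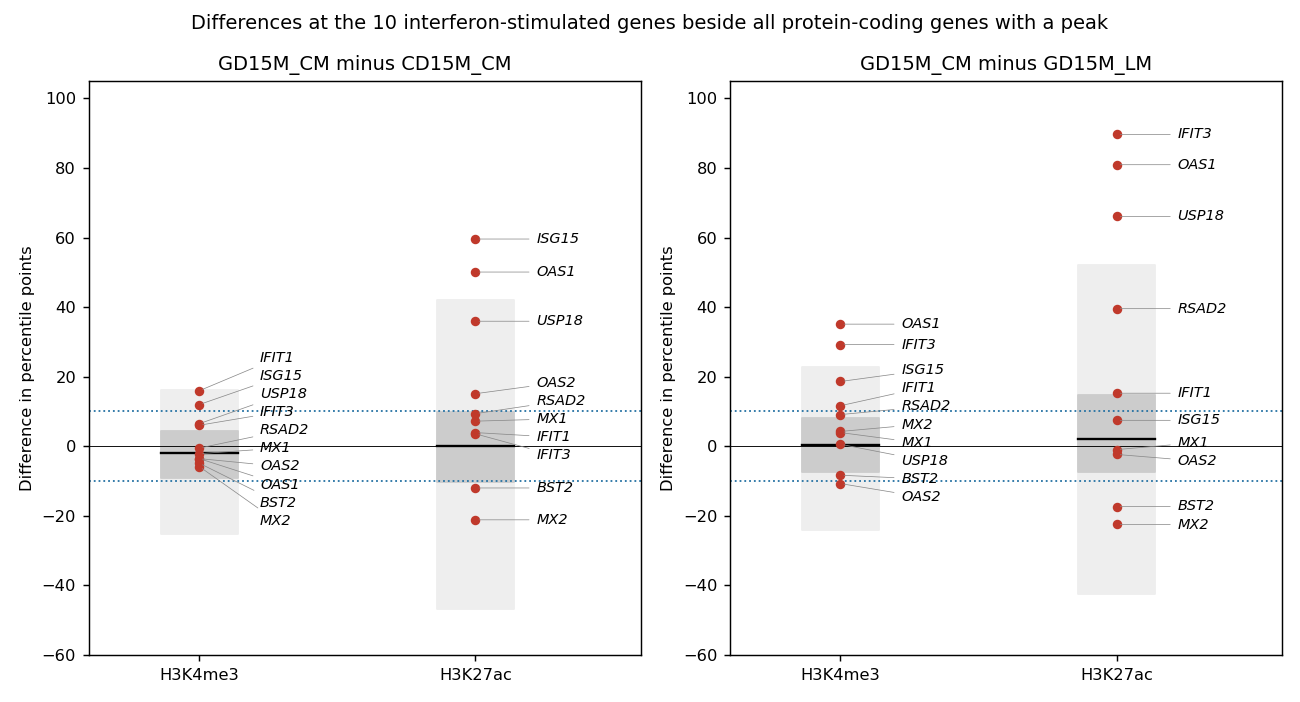
Difference in percentile points of each ISG (red points) between GD15M_CM and CD15M_CM (left) and between GD15M_CM and GD15M_LM (right), for both marks, over the middle 50% (dark grey) and middle 90% (light grey) of all protein-coding genes with a peak. The black line is the median of all genes and the dotted lines mark 10 points. IFIT3, OAS1 and USP18 lie above the light band for H3K27ac between the layers, at 89.7, 80.9 and 66.1 points, and ISG15 and OAS1 lie above it between pregnancy and cycle, at 59.6 and 50.1 points. The OAS1 point for H3K4me3 between the layers includes the OAS2 peak and is 16.5 without it.

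Over the 3 tissues, the H3K4me3 level was highest in GD15M_CM for 4 ISGs (ISG15, IFIT1, IFIT3 and USP18), in GD15M_LM for 2 (OAS2 and BST2) and in CD15M_CM for 4 (MX1, MX2, RSAD2 and OAS1). Over all genes with a peak these shares were 30.0%, 28.2% and 41.8%. For H3K27ac it was highest in GD15M_CM for 6 (ISG15, RSAD2, IFIT1, IFIT3, OAS1 and USP18), in GD15M_LM for 4 (MX1, MX2, OAS2 and BST2) and in CD15M_CM for 0, where the shares over all genes were 37.1%, 26.7% and 36.3%. Longitudinal muscle was lowest for 5 ISGs for H3K27ac and for 6 for H3K4me3, beside 40.3% and 39.8% of all genes. Several of these orders rest on small gaps, such as the −0.53 points between pregnant and cyclic circular muscle for H3K4me3 at RSAD2 and the −0.96 points between circular and longitudinal muscle for H3K27ac at MX1, and there is no spread between gilts to set them against.

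The number of H3K27ac peaks in the windows also differed. Summed over the 10 windows there were 44, 21 and 32 peaks in GD15M_CM, GD15M_LM and CD15M_CM, or 42, 21 and 32 when those in both the OAS1 and OAS2 windows are counted once. The sums are 4.4, 2.1 and 3.2 per gene, beside 3.59, 2.63 and 3.65 per gene over all protein-coding genes. They covered 17.1%, 8.63% and 12.6% of the windows, beside 5.12%, 4.04% and 5.57% over all genes. For H3K4me3 the sums were 22, 21 and 25 peaks, or 21, 21 and 23 counted once, and coverage was 16.5%, 14.5% and 17.7%, beside 4.33%, 4.66% and 4.94%. Pregnant circular muscle thus had the most H3K27ac peaks in these windows and longitudinal muscle the fewest. These shares are of summed window length, in which long genes and genes without a peak weigh most among all genes.

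Of the 8 ISGs longer than 6 kb, H3K4me3 lay at 1 gene end only in 8 in GD15M_CM, 6 in GD15M_LM and 7 in CD15M_CM, counting peaks within 3 kb of an end. OAS1 is among them in GD15M_CM through the peak of OAS2 alone, and in CD15M_CM through that peak and another of 523 bp between the genes. MX1, MX2, IFIT3, IFIT1 and USP18 were marked at the lower-coordinate end and RSAD2 and OAS2 at the upper. H3K27ac lay at 1 end only in 5 of the 8 in each tissue. The same counts were not made over all protein-coding genes, so they do not show whether this is particular to the ISGs. The gene table used here gives neither strand nor exons, so these ends are not called start or termination sites.

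The highest H3K4me3 peak of an ISG overlapped an H3K27ac peak of the same tissue in 10 of 10 genes in GD15M_CM, 9 of 10 in GD15M_LM (all but OAS1) and 10 of 10 in CD15M_CM, beside 93.0%, 92.7% and 93.7% of all protein-coding genes with an H3K4me3 peak. In both circular muscles the peak taken for OAS1 is that of OAS2, which thus enters the counts and medians at both genes. In GD15M_LM it is a peak of 585 bp inside OAS1, so OAS1 is not compared at the same site. The extent of the overlap varied, and a median of 82.9%, 51.6% and 86.9% of the H3K4me3 peak was covered in GD15M_CM, GD15M_LM and CD15M_CM. Over all protein-coding genes with an H3K4me3 peak the median was 74.0%, 57.9% and 68.3%, so that longitudinal muscle was lowest there too. At USP18 the H3K27ac peaks covered 63.0% of the H3K4me3 peak in GD15M_CM, 25.4% in GD15M_LM and 38.6% in CD15M_CM. At MX2 they covered 87.0%, 37.1% and 75.7%, and at BST2 93.0%, 80.6% and 89.6%. At IFIT1 coverage was highest in CD15M_CM, with 56.8%, 47.3% and 94.8%, and likewise at IFIT3, with 84.6%, 65.7% and 93.0%, and ISG15, with 81.3%, 69.0% and 84.1%. Coverage is a share of the H3K4me3 peak, whose length also differed. That peak was shorter in CD15M_CM than in GD15M_CM at IFIT1 (1101 against 1871 bp) and IFIT3 (3085 against 4255 bp). At ISG15 it was longer (10083 against 6186 bp).

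A wider list of further ISGs was described in the same way. Of its 50 names, 43 could be placed and 42 had a peak. For H3K4me3, 9 were higher and 6 lower in GD15M_CM than in CD15M_CM, with a median difference of −0.31 points, and 12 were higher and 4 lower than in GD15M_LM, with a median of 6.0 points. The shares over all genes were 11.9% and 23.1% in the first and 20.3% and 19.3% in the second comparison. For H3K27ac, 12 were higher and 4 lower than in CD15M_CM, with a median of 1.20 points, and 16 were higher and 4 lower than in GD15M_LM, with a median of 6.15 points, where the shares over all genes were 24.5% and 25.4%, and 32.0% and 21.6%. PARP9 and DTX3L have the same values in all 6 lists, and IFITM1 and IFITM3 in 5 of the 6, so that these counts include shared peaks. As among the 10 ISGs, the medians against longitudinal muscle were above those of all genes, 0.41 and 1.96 points. The pregnant minus cyclic H3K27ac median of 1.20 points was smaller than the 8.29 points of the 10 ISGs.

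Between pregnant and cyclic circular muscle the largest positive H3K4me3 differences of the wider list were at ZNFX1 and IFIT2, and the largest negative ones at SAMHD1 and EPSTI1. ZNFX1, an RNA helicase that senses viral RNA, had a percentile of 94.2 in GD15M_CM and 70.0 in CD15M_CM, 24.2 points apart. IFIT2, of the same family as IFIT1 and IFIT3, had 91.5 and 74.4, 17.1 points apart, and an H3K27ac percentile of 99.3 in GD15M_CM, 55.4 in GD15M_LM and 98.2 in CD15M_CM. This order of the tissues at IFIT2 was that seen at IFIT3, with longitudinal muscle lowest. SAMHD1, which depletes the nucleotides that viral reverse transcription needs, had an H3K4me3 percentile of 73.4 and 97.8, a difference of −24.4 points, and EPSTI1 70.9 and 85.2, a difference of −14.3 points.

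The protein-coding genes outside both lists whose 6 levels lay closest to the medians of the 10 ISGs were KAT6B, INTS11, VPS16, GRASP and CACNA1F, at a Euclidean distance over the 6 lists of 5.02, 7.06, 7.16, 7.46 and 7.50 points. KAT6B, a histone acetyltransferase gene, had H3K4me3 percentiles of 84.3 in GD15M_CM, 72.8 in GD15M_LM and 72.0 in CD15M_CM and H3K27ac percentiles of 86.6, 76.6 and 77.5. The likeness is one of 6 levels and of nothing else.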

How the data were processed

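CUT&Tag libraries of pig myometrium were analysed, 12 for both marks and 6 for IgG. Reads were aligned to Sscrofa11.1 by the authors using BWA 0.7.17-r1188, and SAMtools 1.9 and Picard 2.8.3 served to discard duplicated and poorly mapped ones. MACS2 2.2.6 was then run on the pooled replicates of each mark and tissue, giving the 6 deposited lists. The deposited fold enrichment is a ratio written by MACS2, named in the supplementary peak lists as a fold over IgG, and its scaling is not given in the sources used here. The deposited −log10 p of each peak had an unreadable column name and was identified by its identity with a column of the supplementary peak lists. Neither is a test between groups. Read depth per library was not used here, and IgG libraries enter only through the fold enrichment.

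Peaks overlapping a gene window by at least 1 bp were taken, and a difference of at least 10 percentile points was called, with Python 3.11.15, pandas 2.3.3, NumPy 2.4.6 and Matplotlib 3.10.9. The share of all protein-coding genes with a peak in at least 1 of both lists that were called the same way is given as background. The overlap and percentile code was tested on simulated data. The members, lists and the 10 point rule were chosen with earlier results of these data known. Named genes were all members, the 2 other ISGs of largest positive and the 2 of largest negative H3K4me3 difference between GD15M_CM and CD15M_CM, the 5 genes nearest to the members' medians, and neighbours in a window. The gene table gives no strand and no sequence, so distances are from gene ends and the planned count of promoter motifs was not run. The alternatives were ranking by −log10 p, windows of 1 kb or around gene ends only, a strict threshold (fold from 5 and −log10 p from 10 upwards), equal numbers of top peaks, fold summed over bases, percentiles among genes, a minimum overlap of 50% of the H3K4me3 peak, and, chosen after seeing the data, leaving out peaks of a neighbouring gene.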

Additional observations from a re-analysis of the deposited data

How the results depend on the processing

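No paired analysis was possible because replicates were pooled before peak calling, and for the same reason no replicate could be left out. The planned motif count was not run. Of 86 counts recomputed under the alternatives, 60 stayed within 1.5 times the main count and 26 did not, and the cause was not tested. The share of all protein-coding genes called the same way, or with the same overlap, follows each changed count in parentheses. For H3K4me3 between pregnant and cyclic circular muscle, the 2 higher ISGs became 0 when ranked by −log10 p (5.53%), 4 under the strict threshold (25.3%) and 4 with percentiles among genes (23.8%). For H3K27ac in that comparison, the 2 lower ISGs became 0 by −log10 p (19.3%), 1 under the strict threshold (39.8%) and 0 with summed fold (20.3%), the 4 higher became 7 with summed fold (18.5%), and MX2 changed sign to 2.37 points by −log10 p. Between the layers, the 1 ISG lower for H3K4me3 became 2 under the strict threshold (34.8%), 2 with equal numbers of top peaks (21.96%), 0 with summed fold (19.04%) and 2 with percentiles among genes (27.04%). For H3K27ac there, the 2 lower became 0 by −log10 p (14.2%), 4 under the strict threshold (47.0%) and 0 with summed fold (21.9%), and the 5 higher became 3 under the strict threshold (34.9%). The strict threshold left no H3K27ac peak for ISG15, OAS1 and RSAD2 in any tissue or for MX2 in either circular muscle. The H3K27ac differences of OAS1 and RSAD2 between the layers were thus 0 under it. In the wider list, ranking by −log10 p gave 4 higher (5.53%) and 2 lower (14.5%) for H3K4me3 between pregnancy and cycle. Between the layers it gave 7 higher (13.6%) and 1 lower (12.5%) for H3K4me3 and 1 lower (14.2%) for H3K27ac. Equal numbers of top peaks gave 7 lower between the layers for each mark (21.96% for H3K4me3 and 31.9% for H3K27ac). Overlap of the highest H3K4me3 peak with H3K27ac fell to 6, 4 and 3 ISGs in GD15M_CM, GD15M_LM and CD15M_CM under the strict threshold (51.5%, 58.6% and 47.1%). It fell to 5 in GD15M_LM when 50% of the peak had to be covered (65.3%). Of 40 single differences per alternative, the strict threshold moved 21, summed fold 15, ranking by −log10 p 13 besides the 1 that changed sign, percentiles among genes 13, and the others 1 or 2 each.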
